A study of Rattus norvegicus with 12 samples.

Results

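The 10 genes described here encode the enzymes that carry squalene to cholesterol, namely Sqle, Lss, Cyp51, Tm7sf2, Msmo1, Nsdhl, Hsd17b7, Ebp, Sc5d and Dhcr7. They were found as the probe sets whose platform annotation names exactly 1 gene, that gene being one of the 10. This gave 14 probe sets of 15866 that are not controls, and 10 of 10411 genes. Lss, Cyp51, Hsd17b7 and Sc5d had 2 probe sets each and the other 6 genes had 1 each.

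Total RNA of burned rats (thermal injury) and of sham-treated controls was measured on Affymetrix RAE230A expression arrays. Samples are labelled day 1, 2, 4 or 7, with 3 samples a day, and each sample is a pair of channels, sham in channel 1 (Cy3) and injury in channel 2 (Cy5). The deposited value of a probe set is 1 log2 ratio per sample, so a sham level stands inside every value and there is no separate control sample. The sources used here give no strain, age, sex, tissue, burn size or further treatment of the animals, and do not say whether same-day samples are separate rats. The p-values therefore measure only the spread between these samples, which may be technical. Which channel is divided by which is also not stated. Injury divided by sham is the likely reading, since injury is channel 2, and a value above 0 is read as higher in injured rats throughout, so every direction below depends on that reading. In bulk RNA such as this, fewer cells of a type and less RNA per cell cannot be told apart.

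Cholesterol is built from acetyl-CoA through mevalonate and isoprenoid units to squalene, and squalene is then oxidised, closed into the sterol ring system and trimmed to cholesterol in the endoplasmic reticulum. The liver is a main site of this synthesis. When membrane sterol is low, SREBP-2 (gene Srebf2) is cut free with the help of Scap, enters the nucleus and activates the genes of the whole pathway, usually together with the factors NF-Y and Sp1 bound close by. When sterol is plentiful, the Insig proteins hold the Scap and SREBP complex in the endoplasmic reticulum.

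Promoter sequences show what the members share outside the array values. The RefSeq promoter table (build GRCr8) held 9 of the 10 genes; Sqle was the exception and is not analysed here in this respect. Of the 9, 4 follow as the 250 bases before the gene start, 5′ to 3′ on the gene's strand, with matches to the NF-Y box (CCAAT on either strand, so also ATTGG) in capitals. Lss and Msmo1 are shown because they had the lowest day 4 ratios among the genes in the table. Nsdhl is shown because it held the most NF-Y boxes, and Cyp51 because it held none.
Lss, chr20:12118231-12118480, minus strand: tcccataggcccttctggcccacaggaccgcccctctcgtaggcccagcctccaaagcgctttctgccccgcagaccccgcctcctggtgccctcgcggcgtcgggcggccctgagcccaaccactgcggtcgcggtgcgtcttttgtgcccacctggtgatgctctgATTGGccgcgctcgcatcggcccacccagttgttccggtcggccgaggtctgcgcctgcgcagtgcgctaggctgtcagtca
Msmo1, chr16:29746863-29747112, plus strand: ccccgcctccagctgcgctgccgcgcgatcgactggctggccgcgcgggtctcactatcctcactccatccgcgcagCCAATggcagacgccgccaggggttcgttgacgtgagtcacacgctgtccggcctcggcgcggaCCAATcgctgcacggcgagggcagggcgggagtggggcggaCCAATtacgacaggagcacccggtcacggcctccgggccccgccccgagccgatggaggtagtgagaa
Nsdhl, chrX:155817110-155817359, plus strand: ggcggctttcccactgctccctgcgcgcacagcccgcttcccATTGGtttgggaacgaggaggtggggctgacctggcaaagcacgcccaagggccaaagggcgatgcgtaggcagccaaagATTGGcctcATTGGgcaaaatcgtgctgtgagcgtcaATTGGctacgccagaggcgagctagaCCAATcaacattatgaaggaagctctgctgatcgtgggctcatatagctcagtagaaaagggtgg
Cyp51, chr4:30991443-30991692, plus strand: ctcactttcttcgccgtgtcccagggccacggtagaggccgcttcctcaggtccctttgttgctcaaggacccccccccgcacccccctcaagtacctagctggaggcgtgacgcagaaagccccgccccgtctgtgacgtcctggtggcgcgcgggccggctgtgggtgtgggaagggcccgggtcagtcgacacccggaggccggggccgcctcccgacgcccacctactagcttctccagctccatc

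An NF-Y box was found in 7 of the 9 promoters (windows of 300 bases, 250 before the start and 50 after), against 37.5% of all 33469 promoters of the table. Cyp51 and Dhcr7 held none. In each of the 7 genes at least 1 box began between 60 and 100 bases before the start, a window set after these positions had been seen, which 9.19% of all promoters share. The nearest such box began 82 bases before the start in Lss, 89 in Tm7sf2, 86 in Hsd17b7, 85 in Ebp and 87 in Sc5d, in each as ATTGG on the gene's strand. In Msmo1 it began 68 bases and in Nsdhl 65 bases before the start, as CCAAT. The Sp1 box GGGCGG, searched on both strands, was found in 8 of 9 promoters, all but Nsdhl, against 33.1% of all promoters, and its pair of matches in Dhcr7 overlap by a single base. The E-box CACGTG was found in Sc5d alone, against 6.42% of all promoters. The sterol response element core TCACNCCAC matched in 0 of 9 windows, against 1.12% of all promoters, and its stricter form TCACCCCAC, every match of which is also a match of the core, in 0 of 9 against 0.484%. No match says only that these letters are not in this window.

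**Figure D1:**
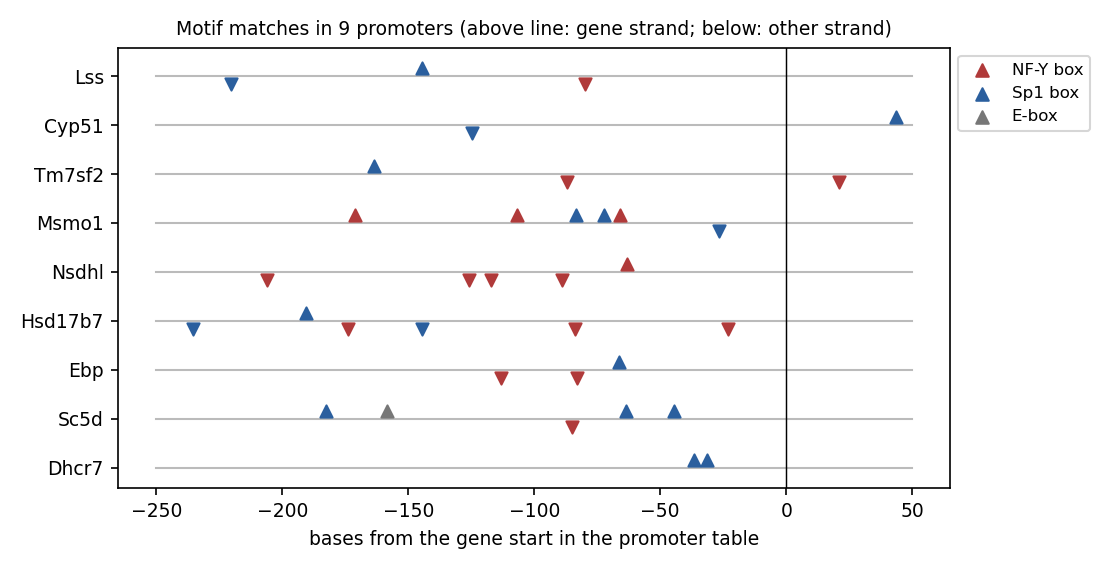
Motif matches in the promoters of 9 sterol enzyme genes, by distance in bases from the gene start (x axis), from 250 bases before to 50 after. Markers above a gene's line are on its own strand and markers below on the other strand; 7 genes have an NF-Y box between 60 and 100 bases before the start.

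Across the 9 arrays used, the array median before centring lay between -0.13 and 0.16 on the log2 scale. The whole numbers recovered from the ratios ranked the probe sets alike among the arrays of days 2, 4 and 7, with rank correlations between 0.663 and 0.716 over 36 pairs of arrays. Between day 1 and the other days they lay between -0.0033 and 0.018 over 27 pairs, so the day 1 identifiers do not match and day 1 is left out. The log2 ratios themselves agreed far less between arrays. Their Pearson correlations lay between 0.0027 and 0.15 over 9 same-day pairs of days 2, 4 and 7. Over the 27 pairs from different days among these they lay between -0.10 and 0.12. Marker lists of other cell types stood apart in some samples. The 14 exocrine pancreas markers measured had medians of 0.03, 2.76 and 1.33 in samples 1 to 3 of day 4 and between -0.24 and 0.20 in the other 6. The 3 neutrophil markers had medians of 2.62, 1.08 and 1.57 at day 7, and the median of the 11 hepatocyte markers lay between -0.22 and 0.25 in all 9 samples.

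At day 4 most of the enzymes had ratios below 0, while at day 2 most had ratios above 0. The median of the 14 probe sets was 0.25, 0.23 and 0.30 in the 3 samples of day 2, and -0.57, -0.42 and -0.31 in the 3 samples of day 4. At day 7 it was 0.31, -0.26 and 0.17, so sample 2 of day 7 stood with the day 4 samples and the other 2 with day 2. In that sample 13 of the 14 probe sets were below 0, and 11, from 9 genes, were below both other samples of the day, an order that 32.2% of all probe sets had. The median of day 4 minus day 2 over the members was -0.64, with 14 of 14 below 0, against 0.01 over all probe sets. For day 7 minus day 4 it was 0.46, with 11 of 14 above 0, against 0.01. The contrasts of day 4 with day 2 and of day 7 with day 4 use the same day 4 samples.

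**Figure D2:**
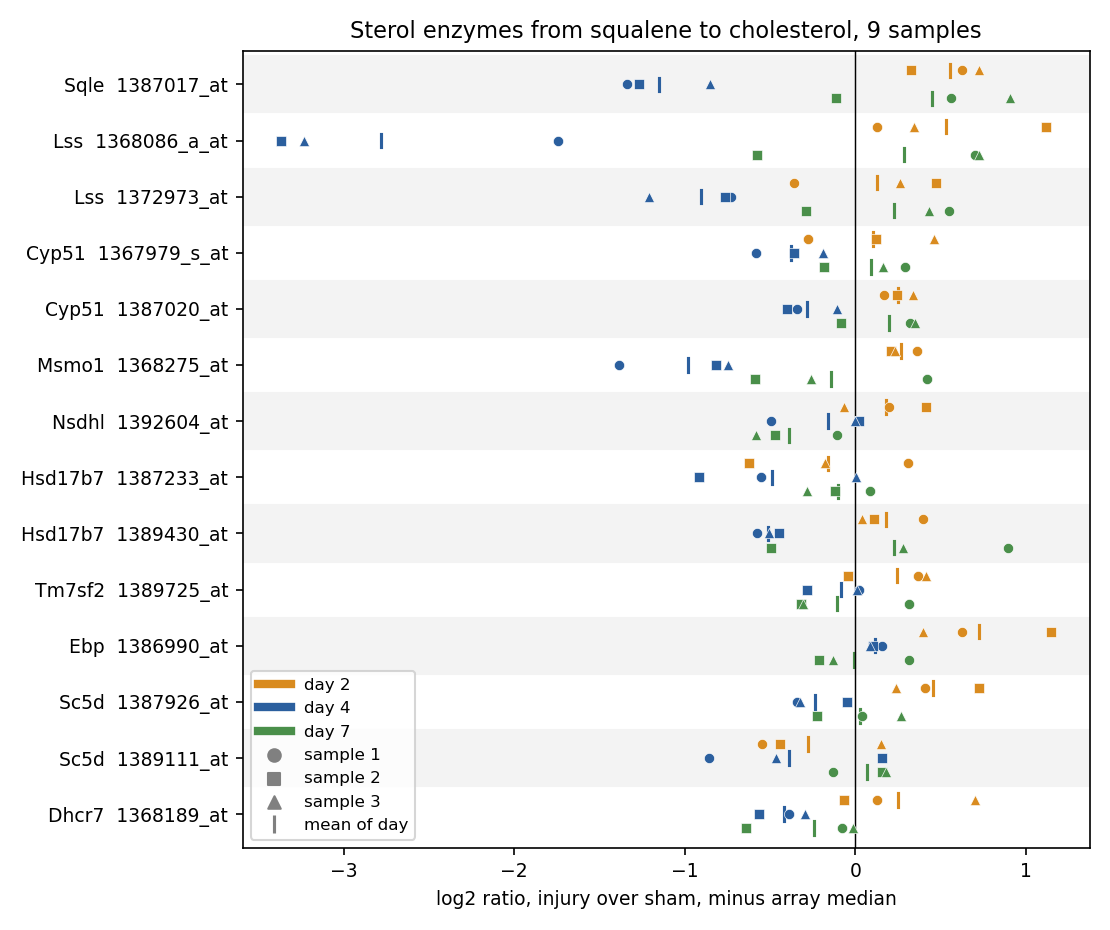
Centred log2 ratio of injury over sham (x axis) of each of the 14 probe sets (rows) in the 9 samples; colour gives the day, marker shape the sample number and the vertical tick the mean of the day. The lowest values are those of Lss 1368086_a_at at day 4, between -3.37 and -1.75, and 9 of the 14 probe sets have all 3 day 4 samples below all 3 day 2 samples.

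None of the 14 probe sets passed limma's test at an adjusted p of 0.05 in any of the 8 comparisons, and few of all 15866 did. The share of all probe sets called was 0.0378% at day 2, 0% at day 4 and 0.0378% at day 7, and 0.271% for the mean of the 3 days. It was 0% for day 4 minus day 2, 0.0063% for day 7 minus day 4, 0% for day 7 minus day 2 and 0% for any difference between the 3 days. At an unadjusted p under 0.05, 1540 probe sets of all were counted at day 4, 1368 for day 4 minus day 2, 1293 for day 7 minus day 2 and 1837 for any difference. In that count the members numbered 9 of 14 lower at day 4 (6 genes), against 4.36% of all probe sets, and 10 of 14 lower at day 4 than at day 2 (8 genes), against 4.62%. They numbered 0 higher at day 4, against 5.34%, 3 higher at day 2, against 4.75%, 7 higher at day 7 than at day 4 (5 genes), against 5.8%, and 10 with any difference between days (9 genes), against 11.6%. The day 4 count was 4 without sample 1 of day 4, 5 without sample 2 of day 4, and 4 in a fit whose variance prior did not follow brightness. The smallest adjusted p of a member was 0.0539 at day 4, 0.0760 for day 7 minus day 4, 0.103 for day 4 minus day 2, 0.110 for any difference, 0.122 at day 2, 0.249 for the mean of the 3 days, 0.290 at day 7 and 0.480 for day 7 minus day 2.

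Counted by sample, 9 of the 14 probe sets, from 8 genes, had all 3 day 4 samples below all 3 day 2 samples, against 7.18% of all probe sets. The 5 without this were Cyp51 1367979_s_at, Nsdhl, Tm7sf2, Hsd17b7 1387233_at and Sc5d 1389111_at. All 3 day 4 samples lay below all 3 day 7 samples in 6 probe sets of 4 genes (both of Lss, both of Cyp51, Sqle and Msmo1), against 9.15%. Ratios were above 0 in 3 of 3 samples in 7 probe sets at day 2, against 13.5%, and below 0 in 3 of 3 samples in 9 at day 4, against 16.6%. Both held for 6 probe sets of 6 genes, Sqle, Lss 1368086_a_at, Cyp51 1387020_at, Msmo1, Hsd17b7 1389430_at and Sc5d 1387926_at, against 2.57% of all probe sets. Hsd17b7 1389430_at had both only after centring. Its deposited ratio in sample 2 of day 2 was -0.018, and the median of that array was -0.13.

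**Figure D3:**
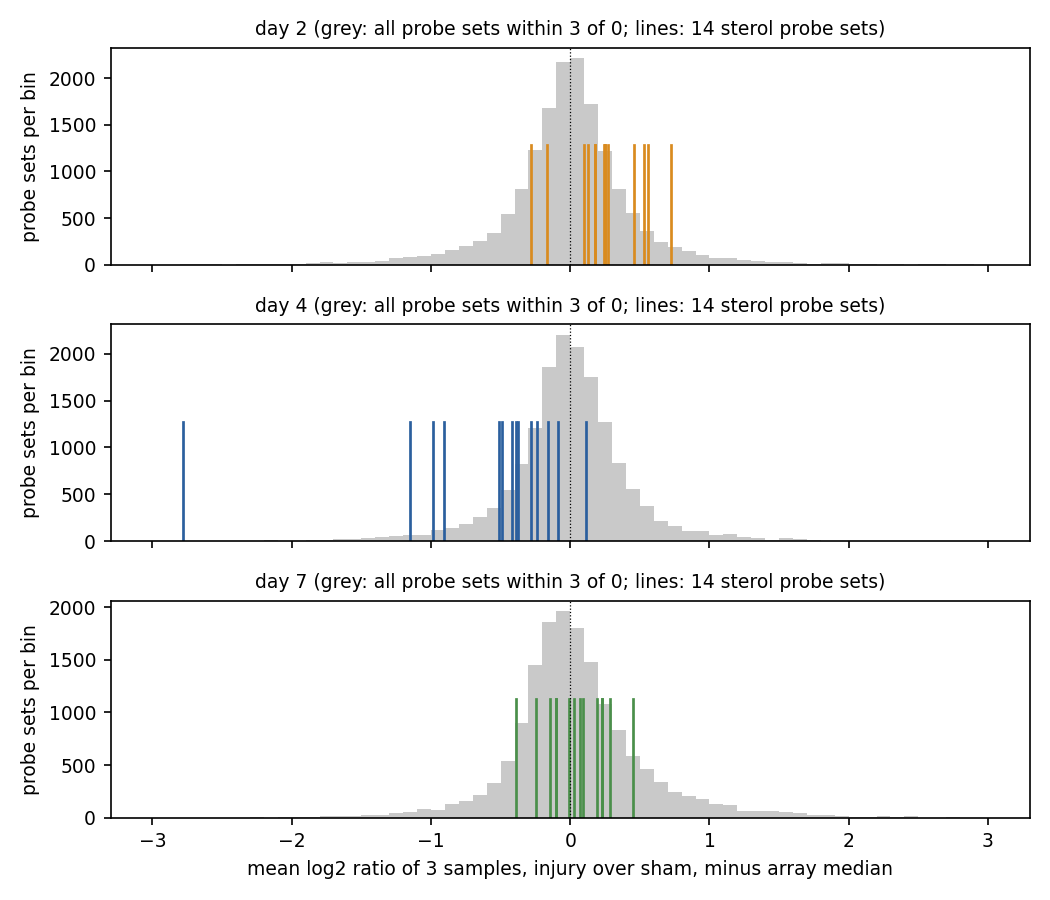
Mean centred log2 ratio of the 3 samples of each day (x axis) for all probe sets within 3 of 0 (grey histogram, probe sets per bin) and for the 14 sterol enzyme probe sets (coloured lines). At day 4, 13 of the 14 lines lie below 0, with a median of -0.40; at day 2, 12 lie above 0, with a median of 0.25.

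Sqle, squalene epoxidase, adds oxygen to squalene and is a rate-limiting step of the late pathway. Its probe set was at 0.62, 0.32 and 0.72 in samples 1 to 3 of day 2, at -1.34, -1.27 and -0.85 at day 4, and at 0.56, -0.11 and 0.90 at day 7. All 3 day 4 samples lay below the 6 others. The day 4 mean was -1.15 ± 0.26 (SD, n = 3), 2.22-fold lower than sham, with an adjusted p of 0.148 and the fifth-smallest p of all probe sets (rank 5). Day 4 lay 1.71 below day 2 (difference -1.71, SE 0.26, adjusted p = 0.103) and day 7 lay 1.60 above day 4 (SE 0.26, adjusted p = 0.0760). None of these passed, but with each array scaled to an equal median absolute deviation day 7 minus day 4 had an adjusted p of 0.0453. Without sample 2 of day 7 the adjusted p was 0.0472 for day 4 minus day 2 and 0.0116 for day 7 minus day 4.

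Lss, lanosterol synthase, closes the epoxide of squalene into the sterol ring. Its probe set 1368086_a_at was at 0.13, 1.12 and 0.35 at day 2, at -1.75, -3.37 and -3.24 at day 4, and at 0.70, -0.58 and 0.72 at day 7. The day 4 samples stood far below the other 6, whose lowest was sample 2 of day 7. The day 4 mean was -2.78 ± 0.90 (SD, n = 3), 6.88-fold lower than sham, the smallest p of all 15866 probe sets (rank 1) and the 4th lowest ratio, with an adjusted p of 0.0539, just above the threshold. The difference of day 4 from day 2 was -3.31 (SE 0.47, adjusted p = 0.103), and that of day 7 from day 4 was 3.07 (SE 0.47, adjusted p = 0.0760). Sample 1 of day 4 and sample 2 of day 7 weigh on this result, since the day 4 adjusted p was 0.0139 without the former and 0.0147 without the latter. For day 4 minus day 2 these values were 0.0381 and 0.0472, and for day 7 minus day 4 they were 0.0401 and 0.0162, and 0.0453 with each array scaled to an equal median absolute deviation.

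The other Lss probe set, 1372973_at, was likewise lowest at day 4, with a smaller range. It was at -0.36, 0.47 and 0.26 at day 2, at -0.73, -0.77 and -1.21 at day 4, and at 0.55, -0.29 and 0.43 at day 7. The day 4 samples again lay below the 6 others, and sample 1 of day 2 and sample 2 of day 7 were the other samples below 0. The day 4 mean was -0.90 ± 0.27 (SD, n = 3; adjusted p = 0.156), 1.87-fold lower against the 6.88-fold of 1368086_a_at, so the size of the Lss ratio depends on the probe set. With both averaged the day 4 ratio of the gene had an adjusted p of 0.0955 over genes.

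Where a pair of whole numbers was recovered, the deposited ratio, before centring, could also be written as that pair. Pairs are given here as injury and sham by the likely order of the ratio. They carry the sign of the deposited ratios and no further evidence of direction. Near 0 that sign can differ from the sign of the centred ratios given elsewhere. For Hsd17b7 1389430_at in sample 2 of day 2 the pair was 6315 and 6394, while the centred ratio was 0.11. Most ratios of some members, such as Msmo1, Nsdhl, Tm7sf2, Dhcr7 and Cyp51, gave no pair. For Lss 1368086_a_at the pair of injury and sham was 525 and 1796, 249 and 2602, and 218 and 2141 in the 3 samples of day 4. At day 2 it was 647 and 579, 10587 and 5324, and 3079 and 2440, and at day 7 it was 6383 and 3859, 2353 and 3346, and 6629 and 3592. These are the ratios in lowest terms, so the deposited signals were these numbers or whole multiples of them, and a number sets no level between samples. Within each pair, injury was below sham in the 3 day 4 samples and in sample 2 of day 7, and above it in the other 5. The corresponding day 4 pairs of Sqle were 4325 and 11161, 3864 and 9437, and 2298 and 4327.

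**Figure D4:**
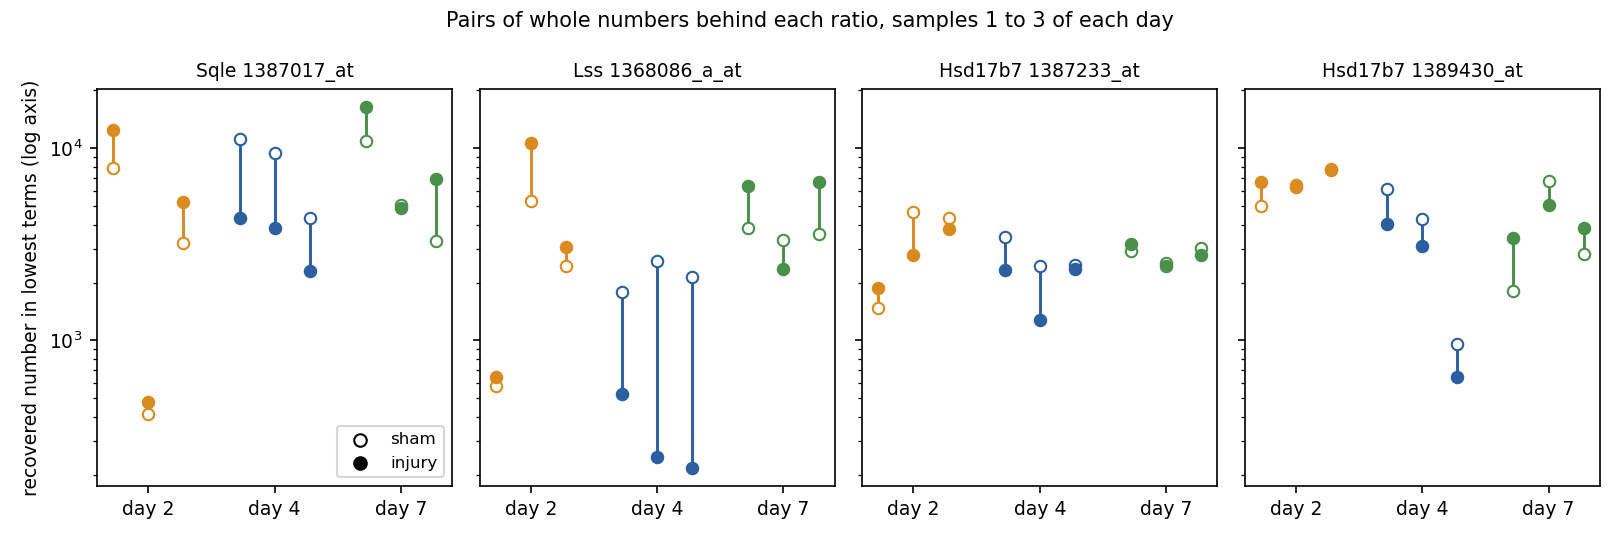
Whole numbers recovered in lowest terms (y axis, log scale) for injury (filled) and sham (open) in samples 1 to 3 of each day, for the 4 probe sets of the members with all 9 pairs recovered. The length of a line is the size of the deposited ratio, before centring, and the height has no meaning between samples. Injury lies below sham in every day 4 sample of the 4 probe sets.

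Cyp51, lanosterol demethylase, removes the first methyl group of the sterol ring. Its probe set 1387020_at was at 0.17, 0.24 and 0.34 at day 2, at -0.34, -0.40 and -0.11 at day 4, and at 0.32, -0.08 and 0.35 at day 7. The day 4 samples lay below all others in a narrow range. The 3 day 4 samples averaged -0.28 ± 0.15 (SD, n = 3; adjusted p = 0.458), and day 4 minus day 2 was -0.53 (SE 0.16, adjusted p = 0.390). The other probe set, 1367979_s_at, which the annotation lists under the same accession, was at -0.28, 0.12 and 0.46 at day 2, at -0.58, -0.36 and -0.19 at day 4, and at 0.29, -0.18 and 0.16 at day 7. Its sample 1 of day 2 lay inside the day 4 range, and its day 4 mean was -0.38 ± 0.20 (adjusted p = 0.431).

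Tm7sf2, a sterol reductase that acts on the ring after Cyp51, stood near 0. It was at 0.37, -0.05 and 0.41 at day 2, at 0.02, -0.28 and 0.01 at day 4, and at 0.31, -0.32 and -0.31 at day 7. The samples of the 3 days overlapped. The day 4 mean was -0.08 ± 0.17 (SD, n = 3; adjusted p = 0.936), and the F test of any difference between days gave an adjusted p of 0.667.

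Msmo1, Nsdhl and Hsd17b7 act in turn to remove the paired methyl groups at a single ring carbon. Msmo1, the methyl oxidase that starts this cycle, was at 0.36, 0.21 and 0.23 at day 2, at -1.38, -0.82 and -0.75 at day 4, and at 0.42, -0.59 and -0.26 at day 7. Its day 4 samples lay below the 6 others, with sample 2 of day 7 next to them. Msmo1 averaged -0.98 ± 0.35 (SD, n = 3), 1.98-fold lower than sham at day 4, rank 9 by p with an adjusted p of 0.156. Day 4 minus day 2 was -1.25 (SE 0.25, adjusted p = 0.172). Of the 3 enzymes of this cycle, Msmo1 had the lowest mean at day 4.

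Nsdhl, the dehydrogenase of the cycle, was at 0.19, 0.41 and -0.07 at day 2, at -0.49, 0.02 and 0.00 at day 4, and at -0.11, -0.47 and -0.58 at day 7. By its mean its lowest day was day 7, as for Ebp and Tm7sf2 and unlike Sqle, Lss, Cyp51 and Msmo1. The day 7 mean was -0.39 ± 0.25 (SD, n = 3; adjusted p = 0.290), the smallest adjusted p of the members at that day, and its difference between day 7 and day 4 of -0.23 (SE 0.20, adjusted p = 0.714) did not pass.

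Hsd17b7, the ketosteroid reductase that ends the cycle, gave different patterns in its 2 probe sets. Probe set 1389430_at was at 0.39, 0.11 and 0.04 at day 2, at -0.58, -0.45 and -0.51 at day 4, and at 0.89, -0.50 and 0.28 at day 7. Its day 4 samples lay close together, and sample 2 of day 7 fell within their range. They averaged -0.51 ± 0.07 (SD, n = 3; adjusted p = 0.437). Probe set 1387233_at was at 0.31, -0.62 and -0.18 at day 2, at -0.55, -0.92 and 0.00 at day 4, and at 0.09, -0.12 and -0.28 at day 7, and its days overlapped. Its day 4 mean was -0.49 ± 0.46 (adjusted p = 0.462), close to that of the other probe set with a wider spread.

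Ebp, the sterol isomerase that moves a double bond within the ring, had the highest day 2 mean of the list. It was at 0.63, 1.15 and 0.40 at day 2, at 0.16, 0.11 and 0.09 at day 4, and at 0.31, -0.22 and -0.13 at day 7. Every day 2 sample lay above every sample of days 4 and 7. The day 2 mean was 0.72 ± 0.38 (SD, n = 3), 1.65-fold higher than sham, rank 58 by p with an adjusted p of 0.122, and the day 4 mean of 0.12 ± 0.04 was the 1 day 4 mean of the list above 0. Day 7 minus day 2 was -0.73 (SE 0.21, adjusted p = 0.480).

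Sc5d, the sterol desaturase of the step before last, gave disagreeing probe sets. Probe set 1387926_at was at 0.41, 0.73 and 0.24 at day 2, at -0.34, -0.05 and -0.33 at day 4, and at 0.04, -0.22 and 0.27 at day 7. Its day 2 and day 4 samples did not overlap. The day 2 mean was 0.46 ± 0.25 (SD, n = 3; adjusted p = 0.313) and the day 4 mean -0.24 ± 0.17 (adjusted p = 0.620). Probe set 1389111_at was at -0.55, -0.44 and 0.15 at day 2, at -0.86, 0.16 and -0.46 at day 4, and at -0.13, 0.15 and 0.18 at day 7. Its day 2 mean was -0.28 ± 0.38 (adjusted p = 0.722), of opposite sign to that of 1387926_at.

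Dhcr7, which reduces 7-dehydrocholesterol to cholesterol in the final step, was at 0.12, -0.07 and 0.70 at day 2, at -0.39, -0.57 and -0.30 at day 4, and at -0.08, -0.64 and -0.01 at day 7. Its day 4 samples lay below the day 2 samples, and sample 2 of day 7 lay below all others. At day 4 it averaged -0.42 ± 0.14 (SD, n = 3; adjusted p = 0.423), and day 4 minus day 2 was -0.67 (SE 0.23, adjusted p = 0.428).

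The members resembled each other to different degrees over the 9 arrays. The Pearson correlation of a probe set with the mean of the other 9 genes was 0.944 for Msmo1, 0.932 for Cyp51 1387020_at and 0.891 for Sqle. It was 0.798 for Lss 1368086_a_at and 0.825 for Hsd17b7 1389430_at. The lowest were Sc5d 1389111_at at 0.129, Nsdhl at 0.318 and Hsd17b7 1387233_at at 0.397. The points share arrays and days, and these are descriptions. The mean profile of the 10 genes was 0.24, 0.28 and 0.32 at day 2, -0.63, -0.59 and -0.48 at day 4, and 0.28, -0.33 and 0.07 at day 7.

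Of 12769 other probe sets that name 1 gene, the 10 most like this mean profile had correlations between 0.916 and 0.956 over the 9 arrays, and 1.17% of all exceeded 0.8. Hsp90ab1, a cytosolic chaperone, was nearest at 0.956, with ratios of 0.46, 0.63 and 0.47 at day 2 and -0.36, -0.41 and -0.42 at day 4. Elovl5, a fatty acid elongase, followed at 0.942, and Acss2, which makes acetyl-CoA from acetate, was at 0.922. The other 7 were Pls3, Tns1, Hs6st1, Mlec, Jcad, Csnk1a1 and Slc6a9. With day means taken out, the correlations of the 10 lay between 0.536 and 0.901, and that of Acss2 was the highest. Acss2 was at 0.43, -0.50 and 0.15 in the 3 samples of day 7, again lowest in sample 2. The 10 were chosen on the same 9 arrays, so these correlations and this order follow in part from the choice. Among genes of the sterol lists, Acat2 ranked 35 (0.879) and Fdft1 1367839_at ranked 43 (0.868).

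The genes of the steps before squalene also had a median below 0 at day 4 and above 0 at day 2. Of 11 genes listed for the mevalonate and isoprenoid arm, 7 were measured by 11 probe sets, of which 0 passed an adjusted p of 0.05 in any comparison. At an unadjusted p under 0.05, 5 of the 11 were lower at day 4, against 4.36% of all probe sets, 6 were lower at day 4 than at day 2, against 4.62%, and 0 were higher in either. The 5 were both probe sets of Fdft1, both of Idi1 and that of Acat2, and the 6 add that of Fdps. Those of Mvk, Mvd and Pmvk were in neither count, with day 4 means between -0.28 (Mvd) and 0.23 (Mvk 1375401_at). At day 2, 3 of the 11 were higher, against 4.75%. The median was 0.18 at day 2, -0.29 at day 4 and -0.03 at day 7, and in sample 2 of day 7 it was -0.72 with 10 of 11 below 0. Fdft1, squalene synthase, which makes the substrate of Sqle, led by the F test with probe set 1389906_at (adjusted p = 0.183), at 0.32, 0.79 and 0.00 at day 2 and -0.60, -0.64 and -0.84 at day 4. Its other probe set, 1367839_at, had a day 4 mean of -0.53 against -0.69 in 1389906_at (F test adjusted p = 0.249). Idi1 1388872_at, the isomerase of the isoprenoid unit, was at -0.24, -0.85 and 0.42 at day 2, at -1.15, -1.46 and -1.28 at day 4 and at 0.55, -0.77 and 0.91 at day 7 (F test adjusted p = 0.261). The other Idi1 probe set, 1368878_at, was at -0.21, -0.69 and -0.71 at day 4 (F test adjusted p = 0.529). Its day 4 mean was -0.54, against -1.30 in 1388872_at. Acat2, the thiolase at the entry of the pathway, had a day 4 mean of -0.53 ± 0.19 (SD, n = 3; adjusted p = 0.364).

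Genes that accompany the late steps without belonging to the 10 enzymes stood nearer 0 at day 4. Of 10 listed, 7 were measured by 10 probe sets, with 0 passing, a day 4 median of 0.07 and 1 lower at day 4 at an unadjusted p under 0.05, against 4.36% of all probe sets. The day 2 median was 0.12, with 0 higher at an unadjusted p under 0.05. The 3 leading by the F test were Sec14l2, a lipid transfer protein that binds squalene, with a day 4 mean of -0.37 in probe set 1387252_at (adjusted p = 0.437), and the electron carriers Cyb5r3 at 0.16 (adjusted p = 0.831) and Cyb5a at 0.10 (adjusted p = 0.872). The other Sec14l2 probe set, 1374308_at, had a day 4 mean of -0.05 (adjusted p = 0.968).

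The sensing and SREBP processing genes, 10 of 10 measured by 13 probe sets, had a day 4 median of -0.13, with 0 passing an adjusted p of 0.05 and 0 at an unadjusted p under 0.05 at that day. At day 2 the median was 0.21 and 3 of the 13 were higher at an unadjusted p under 0.05, against 4.75%. The members had a day 2 median of 0.25, with 3 of 14 higher. The leading genes by the F test were Insig2, Srebf2 and the nuclear receptor Rxra. Srebf2 1371979_at was at 0.30, 0.66 and 0.16 at day 2 and at -0.38, -0.02 and -0.37 at day 4, with a difference between the days of -0.62 (adjusted p = 0.348). Its other probe set, 1377489_at, ranged from -1.28 to 1.46 within day 4. Insig2 was at -0.47, -0.75 and -0.52 at day 7, and its F test gave an adjusted p of 0.288.

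Genes of sterol uptake, transport, storage and conversion, 12 of 19 measured by 16 probe sets, had a day 4 median of 0.15 with 0 passing. At an unadjusted p under 0.05, 1 of the 16 was higher at day 4, against 5.34% of all probe sets, and 1 was lower, against 4.36%. At day 2 the median was 0.17 and 3 of the 16 were higher, against 4.75%. Cyp27a1, a sterol hydroxylase of bile acid synthesis, led by the F test (adjusted p = 0.288) with values of -0.32, -0.49 and -0.64 at day 7. Scarb1, the HDL receptor, had a day 4 mean of -0.53 ± 0.33 (SD, n = 3; adjusted p = 0.355) in probe set 1386956_at. In its other probe set, 1367855_at, the day 4 mean was -0.24 ± 0.62 (adjusted p = 0.803), with sample 1 at 0.34. Lipa, the lysosomal lipase, had a day 4 mean of 0.18 ± 0.15 (adjusted p = 0.802).

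**Figure D5:**
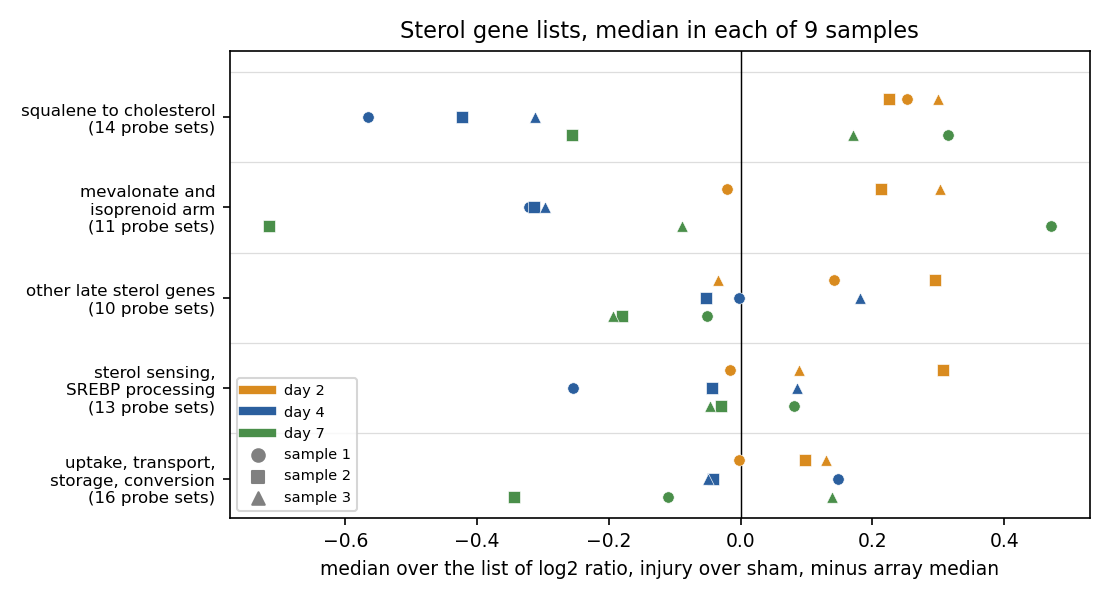
Median centred log2 ratio (x axis) of 5 lists of sterol genes (rows) in each of the 9 samples; colour gives the day and marker shape the sample number. The squalene to cholesterol enzymes lie between -0.57 and -0.31 at day 4 and between 0.23 and 0.30 at day 2, and the mevalonate arm is lowest in sample 2 of day 7, at -0.72.

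Markers of other cell types also differed from 0 at day 4. The exocrine pancreas median of 0.03 in sample 1 of day 4 stands beside an enzyme median of -0.57 in the same sample, and its medians of 2.76 and 1.33 in samples 2 and 3 stand beside -0.42 and -0.31. Single pancreas markers ran from -0.72 to 2.75 in sample 1 of day 4. Whether the pancreas markers bear on the enzyme median was not tested. Lss 1368086_a_at was lower in samples 2 and 3 than in sample 1, and whether the pancreas markers play a part in that was not tested. The red cell markers (4 of 8 genes) had medians of 0.34, 0.47 and 1.11 at day 4 and the hepatocyte markers of -0.22, -0.14 and 0.04. The neutrophil markers (3 of 5 genes) had medians of 0.16, 2.14 and 0.48 at day 4, and the macrophage markers (7 of 9 genes) of 0.17, 0.53 and 0.06. The part of these lists was not tested either.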

How the data were processed

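The authors deposited log2 ratios, 1 per probe set and sample; per the labels, channel 1 is sham and channel 2 injury. The sources used here name no software, scaling or centring. Gene names came from the platform annotation. Of 15923 probe sets, 57 controls were left out. A pair of whole numbers was sought behind each ratio (continued fractions, at most 20000, tolerance 6e-10), which succeeded for 94.0% to 94.6% of an array's ratios, against at most 8.1% of shifted values. The median of the smaller number served as brightness, and 115 probe sets with none took the median brightness. Some member probe sets, such as those of Msmo1 and Nsdhl, had a pair in few arrays, so their brightness rests on few ratios. Ratios were centred on the array median over all 15866 probe sets. limma 3.58.1 (R 4.3.3) fitted 1 mean per day to the 9 arrays of days 2, 4 and 7, with a variance prior that followed brightness (6 residual and a median of 5.37 prior degrees of freedom), moderated tests of each day, their mean and their differences, an F test of any difference, and Benjamini-Hochberg adjustment over all 15866 probe sets at 0.05. The fit was tested on simulated data. For arrays, their number limits the precision. Day 1 was left out because its identifiers do not match.

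The members, gene lists, marker lists and tests were chosen with earlier results of these data known. All 14 probe sets of the members are described. Of each other list, the 3 genes leading by the F test are named, and of the mevalonate arm also the other genes measured. The 10 probe sets with the profile most like the members' mean are named too. No probe set was filtered on low values. Alternatives were no brightness trend, all 12 arrays without that trend, each day alone, array weights, gene means, other centring and scaling, no dim probe sets, robust variances, a replicate block and leaving out each sample. Motif matches were counted on both strands of RefSeq promoters (GRCr8).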

Additional observations from a re-analysis of the deposited data

Results flagged for a closer look

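For 6 probe sets every sample of day 2 lay above 0 and every sample of day 4 below 0, so the sign of the centred ratio differed between the days in all 6 samples. For Hsd17b7 1389430_at this held only after centring, since its deposited ratio in sample 2 of day 2 was -0.018. The difference of day 4 from day 2 on the log2 scale was -3.31 for Lss 1368086_a_at, -1.71 for Sqle 1387017_at, -1.25 for Msmo1 1368275_at, -0.70 for Sc5d 1387926_at, -0.69 for Hsd17b7 1389430_at and -0.53 for Cyp51 1387020_at. limma's test of this difference passed an adjusted p of 0.05 for none of them in the fit of all 9 arrays, and the smallest adjusted p was 0.103, for Lss 1368086_a_at and Sqle. Over all 15866 probe sets, 0 passed for this difference and 1368 had an unadjusted p under 0.05. Of all 15866 probe sets, 408 (2.57%) had this pattern of signs.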

How the results depend on the processing

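The members' values under the alternatives were tallied for days 2, 4 and 7, day 4 minus day 2 and day 7 minus day 4. The mean of the 3 days, day 7 minus day 2 and the F test were not in this tally. Of these values, 1265 kept their direction and their side of the threshold, 13 came to pass it and 24 changed sign. Since no member passed in the main fit, those that kept their side did not pass. The number of member probe sets called at day 4 was 0, and 1 (Lss 1368086_a_at) with array weights (adjusted p = 0.0316), without centring (0.0454) and with the dimmest 25% of probe sets left out (0.0272), and 0 to 1 when each sample was left out. For day 4 minus day 2 it was 0 to 2 when each sample was left out, for any difference between days 0 to 2, and for day 7 minus day 4 it was 0 to 2, and 2 (Lss 1368086_a_at and Sqle, adjusted p = 0.0453) with each array scaled to an equal median absolute deviation. The samples whose absence gave these calls were sample 1 of day 4 and sample 2 of day 7. At an unadjusted p under 0.05, 4 members in place of 9 were lower at day 4 without the brightness trend and 4 with all 12 arrays and no trend, and 4 to 10 when each sample was left out (4 without sample 1 and 5 without sample 2 of day 4). With all 12 arrays and no trend the count was 6 in place of 10 for day 4 minus day 2, 4 in place of 7 for day 7 minus day 4, and 4 in place of 10 for any difference, and with no trend alone it was 8, 5 and 7. The cause was not tested.

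Values near 0 changed sign. Ebp at day 7 (-0.01) was 0.073 without centring and 0.035 when centred on the brighter probe sets, and -0.17 to 0.091 when each sample was left out. Tm7sf2 1389725_at for day 7 minus day 4 (-0.02) was 0.011 with array weights, 0.099 without centring, 0.030 when centred on the brighter probe sets, 8.83e-05 with an equal median absolute deviation, and -0.23 to 0.087 when each sample was left out. Leaving out each sample in turn gave ranges across 0 for further values. At day 2 these were Lss 1372973_at (-0.049 to 0.37), Hsd17b7 1387233_at (-0.40 to 0.065) and Cyp51 1367979_s_at (-0.080 to 0.29). At day 4 they were Nsdhl (-0.25 to 0.0094) and Tm7sf2 (-0.14 to 0.015). At day 7 they were Cyp51 1367979_s_at (-0.011 to 0.23), Hsd17b7 1389430_at (-0.11 to 0.59), Msmo1 (-0.43 to 0.079), Tm7sf2 (-0.32 to 0.0025) and Sc5d 1387926_at (-0.092 to 0.15). For day 4 minus day 2 it was Sc5d 1389111_at (-0.38 to 0.13).

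The count of all probe sets called varied from 0 to 22 at day 2 (6 as reported), 0 to 15 at day 7 (6), 2 to 51 for the mean of the 3 days (43) and 0 to 50 for day 7 minus day 4 (1), and when each sample was left out from 1 to 27, 0 to 34, 15 to 43 and 0 to 48. It was at most 1 for day 4, day 4 minus day 2 and any difference, and at most 5, 4 and 17 when each sample was left out. With day means taken out, samples of different days with the same number had correlations of -0.03 to 0.05 over 9 pairs of samples. Those with different numbers had correlations of -0.10 to 0.09 over 18 pairs. Ratios correlated weakly even within a day, so this cannot show whether the numbers pair samples. With the number as a replicate block, 0 members were called in any comparison, and 10 members had an unadjusted p under 0.05 at day 4 and 9 for any difference. The NF-Y and Sp1 counts were the same in the bases before the start alone.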
